A study of Saccharomyces cerevisiae with 6 samples.

Results

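The comparison described here is the change in genomic run-on (GRO) signal between cells taken 60 min after release from a G1 arrest and cells still in the arrest (0 min). A spot of the macroarray was a member when it gave 2 or more GRO ratios at each of these times, which 5781 of 6144 spots did, and 5362 spots gave all 3 at both. The cells were wild-type BY4741 budding yeast that carried plasmid pRS316 and were arrested with alpha factor in every group. For the 60 min group the pheromone had been washed out and the cells had grown in new medium, where the study's flow cytometry and budding counts placed most of them in G2/M. For the 0 min group the cells came straight from the arrest, so exposure to the pheromone and the G1 stage cannot be told apart at that time. Each group had 3 hybridizations. The growth notes speak of separate experiments but tie no replicate number to one of them, so p-values measure the spread between hybridizations. Unless stated otherwise, the fit to the GRO ratios took this spread from all 9 GRO hybridizations. Those include hybridizations of a time between 0 and 60 min, which belong to neither group.

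In a run-on, cells are permeabilized and polymerases already engaged in elongation add a radioactive nucleotide to the transcripts they carry, while no new initiation takes place. The label on a transcript therefore counts active RNA polymerase II on a gene, whereas chromatin immunoprecipitation of the polymerase (RNAp ChIP) counts bound molecules whether they move or not. Alpha factor is the mating pheromone that halts budding yeast at START, the point in G1 where a cell commits to division. Release lets the culture pass through S phase towards mitosis in partial synchrony, and a run-on value is a mean over all cells of the culture, so a change in the share of cells at a stage and a change in transcription within a stage cannot be told apart.

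The study's methods describe probes of whole open reading frames and also mention rDNA spots, so not every spot need be such a frame. Each filter carried its spots at 16 rows, 24 columns and 16 positions. The files name spots by this position and do not pair them with genes, so every value below belongs to a position, and neither gene groups nor markers of the cell cycle stage were analysed here. The GRO ratio is the run-on intensity over the intensity of genomic DNA on the same filter, on the log2 scale, centred on the median of its hybridization. Run-on RNA of the 60 min replicates 1, 2 and 3 was hybridized to filters 5, 6 and 7, and that of the 0 min replicates 1, 2 and 3 to filters 1, 3 and 6. Filter 6 was thus shared by replicate 2 at 60 min and replicate 3 at 0 min.

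The median run-on intensity was 93.1, 97.7 and 197 in the 60 min hybridizations, against 45.2, 56.7 and 63.1 in those of 0 min. Before centring, the median log2 ratio to genomic DNA was 0.61, 0.54 and 0.40 in the 60 min group and -0.52, 0.34 and -0.08 in the 0 min group. The groups did not overlap in either measure, with a difference of 0.60 in the mean uncentred ratio. The exact permutation test returned p = 0.10 for each, the smallest that 3 against 3 hybridizations can give (adjusted p = 0.167 over 5 measures of a hybridization). Run-on spots with an intensity of 0 numbered 169, 169 and 112 at 60 min, against 95, 232 and 148 at 0 min, and these groups overlapped. Centring removes this shift, so every change below is relative to the median spot. The array number limits the precision of each value.

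Relative to the median spot, most positions changed little. The change (60 min minus 0 min) had a median of -0.03 and an SD of 0.78 across spots on the log2 scale, and 61.4% of spots lay within 0.5 of zero. The middle of the distribution was narrower than this SD, since the interquartile range corresponded to an SD of 0.57. The tails were uneven. A total of 510 spots (8.82%) lay below -1 and 290 (5.02%) above 1, while 108 lay below -2 and 47 above 2. Changes ran from -5.87 to 8.06, and the skewness was -0.47. Among the 5362 spots with 6 values they ran from -5.87 to 5.07, with a skewness of -0.80.

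Of the 5781 spots, 135 (2.34%) changed with an adjusted p below 0.05 (limma's moderated test, Benjamini-Hochberg adjustment). The GRO ratio rose at 35 spots (0.605%) and fell at 100 (1.73%). The median change was 1.62 among the spots that rose and -1.73 among those that fell, with a median standard error of 0.30 and 0.29. The smallest called changes were 1.00 upward and -0.93 downward. At an unadjusted p below 0.05 there were 954 spots (16.5%). In 132 of the 135 called spots all 6 values were present, and in each of these 132 the 60 min and 0 min values did not overlap. Across all spots with 6 values the groups did not overlap at 1273 of 5362 (23.7%), of which 537 (10.0%) were higher and 736 (13.7%) lower at 60 min.

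The number of calls depended on single hybridizations. It was 53, 11 and 17 without replicate 1, 2 or 3 at 60 min, and 46, 28 and 152 without replicate 1, 2 or 3 at 0 min. With only the 6 hybridizations of these times in the fit it was 35.

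**Figure D1:**
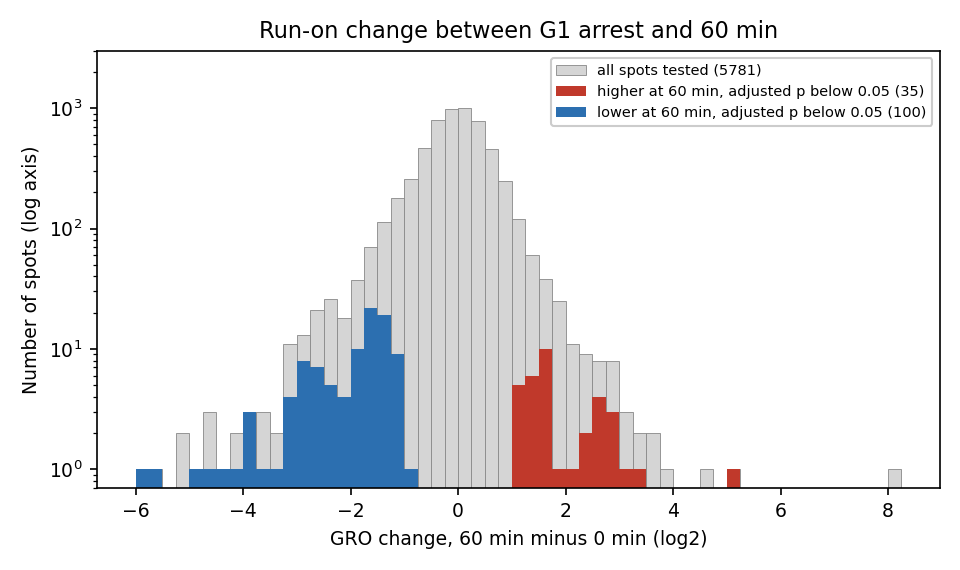
Number of spots (log axis) by GRO change, 60 min minus 0 min, in steps of 0.25 on the log2 scale, for the 5781 spots tested (grey), the 35 that rose (red) and the 100 that fell (blue) with an adjusted p below 0.05. The left tail holds more spots than the right one, and most spots in both tails were not called.

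The named spots are the 2 largest rises and the 2 largest falls among 119 called spots without overlap of the groups and outside the 25% with the dimmest genomic DNA. At R15 - C16 : 15 the run-on intensity was 978, 1427 and 2458 at 60 min, against 19.7, 23.6 and 28.6 at 0 min. The GRO ratios were 2.43, 3.42 and 2.97 at 60 min and -2.37, -2.42 and -1.60 at 0 min. This spot stood above 98.7% of spots at 60 min and above 4.69% of spots at 0 min, and every 60 min value lay far above every 0 min value. It rose by 5.07 ± 0.39 (standard error), with an adjusted p of 0.00344 in limma.

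At R11 - C10 : 8 the run-on intensity was 73.6, 47.1 and 117 at 60 min, against 2.77, 5.61 and 1.59 at 0 min. The 0 min values were far under the hybridization medians, and whether they exceeded the background could not be checked, so the size of the change is uncertain. The ratios were -0.70, 0.28 and -0.43 at 60 min, against -3.07, -3.46 and -3.99 at 0 min. On the values as deposited the spot rose by 3.23 ± 0.37 (standard error), with an adjusted p of 0.0113 in limma, and stood above 38.3% of spots at 60 min and above 1.64% at 0 min. Without both hybridizations of filter 6 its change was 2.70 and its adjusted p 0.0639 in limma.

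R3 - C4 : 3 had run-on intensities of 4.69, 4.91 and 10.3 at 60 min, against 119, 197 and 260 at 0 min, and the same limit holds for its 60 min values. Its ratios were -3.57, -4.76 and -4.02 at 60 min and 1.89, 1.30 and 1.59 at 0 min. The difference was -5.71 ± 0.78 (standard error), with an adjusted p of 0.0142 in limma. With only the 6 hybridizations of 0 and 60 min in the fit, the standard error was 0.36 and the adjusted p 0.00636 (limma). Both groups lay far apart, but the adjusted p (limma) was 0.0822 without both hybridizations of filter 6, 0.0682 without replicate 2 at 60 min and 0.0522 without replicate 3 at 60 min.

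At R16 - C1 : 16 the run-on intensity was 34.4, 31.9 and 84.9 at 60 min, against 312, 436 and 504 at 0 min. The ratios were -1.80, -1.87 and -1.06 at 60 min and 2.64, 2.80 and 2.74 at 0 min. The difference was -4.30 ± 0.69 (standard error), with an adjusted p of 0.0201 in limma. With only the 6 hybridizations of 0 and 60 min in the fit, the standard error was 0.29 and the adjusted p 0.00636 (limma). In that fit the adjusted p (limma) was 0.00712 at R15 - C16 : 15 and 0.0294 at R11 - C10 : 8, both higher than in the main fit. The 0 min values were nearly equal and all lay above those of 60 min. The adjusted p (limma) was 0.0705, 0.0729 and 0.0582 without replicate 1, 2 or 3 at 60 min, 0.0551 and 0.0716 without replicate 1 or 2 at 0 min, and 0.113 without both hybridizations of filter 6. The direction of each of the 4 spots was the same in all 19 other settings in which it was computed. Where a setting only left out hybridizations or spots, the absence of overlap used to choose these spots fixes the direction.

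**Figure D2:**
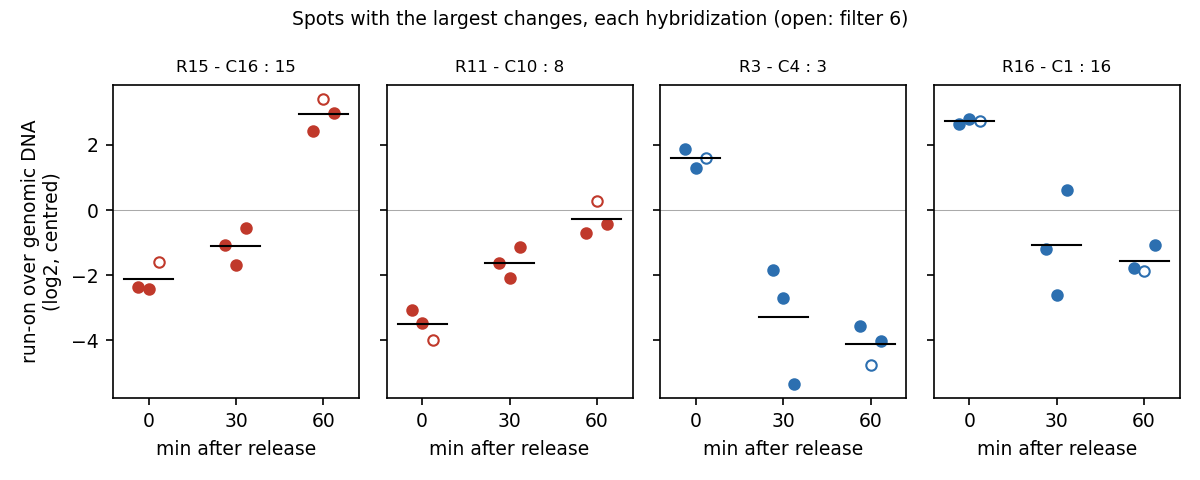
GRO ratio (log2, centred) of the 4 named spots in each hybridization at 0, 30 and 60 min after release, with filled circles for single hybridizations, open circles for those on filter 6 and a line for the mean. In each panel the 3 values at 60 min lie apart from the 3 at 0 min.

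The 30 min hybridizations entered the fit only for the estimate of the spread, so their levels were not part of the contrast. Among the 99 spots that fell and had 2 or more values at 30 min, the 30 min mean was nearer to the 60 min mean than to the 0 min mean at 91. For the spots that rose this was so at 20 of 34, and over all spots at 3317 of 5699. The median ratio of the spots that fell was 0.87, -0.93 and -1.04 at 0, 30 and 60 min. For the spots that rose it was -1.33, -0.36 and 0.56. Single spots were spread around these medians. The 30 min mean lay between the other means at 58 of the 99 spots that fell and beyond the 60 min mean at 41. For the spots that rose it lay between them at 15 of 34 and beyond the 60 min mean at 10. Over all spots it lay between them at 1796 of 5699 and beyond the 60 min mean at 2303. Whether these courses differ was not tested, and replicate 1 at 30 min shared filter 1 with replicate 1 at 0 min.

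RNAp ChIP gave a readout of the same spots from other hybridizations. Its 60 min sample carries a title and a description that name different times, and the description was followed. All 35 spots that rose in GRO had RNAp ChIP values, and their median RNAp ChIP change was 0.97, with a positive change at 34 and a rise past the threshold at 14 (limma). Of the 100 that fell in GRO, RNAp ChIP fell past the threshold at 29 and had a positive change at 32, with a median change of -0.37. No spot that rose in one assay fell in the other past the threshold, but few spots passed it in either assay, so little can be read from this. Over all spots tested in GRO the median RNAp ChIP change was 0.03, with a positive change at 3023 of 5719. In the RNAp ChIP fit 139 of 5864 spots (2.37%) passed the threshold, 51 (0.870%) upward and 88 (1.50%) downward.

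RNAp ChIP fell at both named spots that fell in GRO. Its change was -4.95 ± 0.25 (standard error) at R3 - C4 : 3, with an adjusted p of 6.04e-05 in limma, and -4.05 ± 0.29 at R16 - C1 : 16, with an adjusted p of 1.58e-04. At R11 - C10 : 8 it rose by 0.87 ± 0.17 (adjusted p = 0.0334, limma). At R15 - C16 : 15 the RNAp ChIP change was 1.16 ± 0.60 (adjusted p = 0.437, limma), which did not pass the threshold.

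The shared filter stood out when single hybridizations were compared. The difference between the 60 min and 0 min hybridizations of filter 6 had an SD of 0.70 across spots. For the 8 pairs of 60 min and 0 min hybridizations on different filters the SD was 1.03 to 1.18. The filter 6 pair was narrower even than replicates of one time on different filters, which gave 0.82 to 0.94 at 60 min and 0.98 to 1.07 at 0 min. In the filter 6 pair 9.64% of spots differed by more than 1, against 20.0% to 27.8% in the 8 other pairs. Pearson's r across spots, which are not independent replicates, was 0.891 between the hybridizations of filter 6 and 0.669 to 0.748 in the other pairs.

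The genomic DNA value cancels within the filter 6 pair, because both ratios share it. Without division by genomic DNA the SD of that pair was 0.70 as before, while the 8 other pairs gave 0.83 to 1.19 and the 6 pairs of replicates of one time 0.62 to 1.05. On run-on intensities alone the filter 6 pair was thus still the narrowest of the 9 pairs over time, but it lay within the range of replicates.

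**Figure D3:**
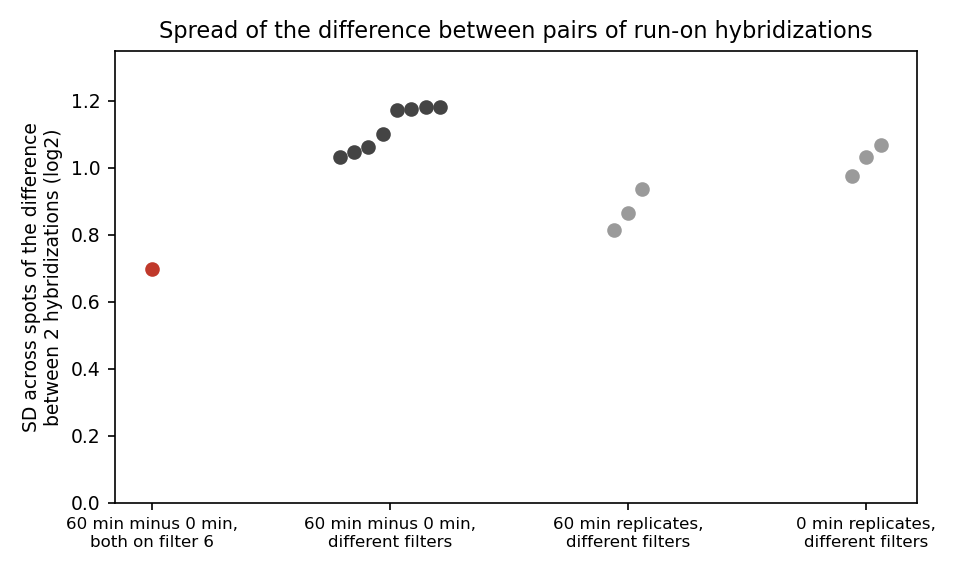
SD across spots of the log2 difference between 2 run-on hybridizations, 1 point per pair, for 60 min minus 0 min on filter 6, the same on different filters, and replicates of 60 min and of 0 min. The filter 6 pair, at 0.70, lies below all other pairs.

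The deviations from the group means showed the same sharing. Over the 5362 spots with 6 values, replicate 2 at 60 min and replicate 3 at 0 min deviated together with r = 0.522. Both ratios hold the genomic DNA value of filter 6, so an error in it enters both deviations with the same sign. By itself that raises r, and r of the deviations without genomic DNA was not computed. The other 8 pairs gave r between -0.352 and 0.185. It was -0.352 to -0.198 in the 4 pairs with 1 hybridization of filter 6 and 0.096 to 0.185 in the 4 pairs with neither. Deviations within a group of 3 sum to zero, so the positive value on filter 6 by itself lowers r in the first 4 pairs and raises it in the other 4.

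Filter 6 and the other filters were also compared as separate estimates of the change. The change on filter 6 had the sign of the change over filters 5 and 7 against filters 1 and 3 at 3488 of 5362 spots, with r = 0.530 across spots and a slope of 0.41 when the filter 6 change was regressed on the change over the other filters. The filter 6 change was the smaller of the 2 in size at 3309 spots. Among the 382 spots chosen for a change above 1 on the other filters alone, the change on filter 6 was positive at 292, with a median of 0.39. Among the 584 with a change below -1 on the other filters it was negative at 482, with a median of -0.54. Spots chosen for a large value on the other filters have that value raised by the choice, so the medians of 1.31 and -1.46 there are not comparable with those on filter 6. At the 34 spots that rose and had 6 values the median change was 1.52 on filter 6 and 1.66 on the other filters. At the 98 that fell it was -1.70 on filter 6 and -1.79 on the other filters. All 132 had the same sign on both, which the absence of overlap between the groups fixes, and the filter 6 change was the smaller at 22 of the 34 and at 59 of the 98.

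Splitting the 6 hybridizations in other ways gave weaker likeness where the filter 6 hybridizations fell on opposite sides. The pairs made of 1 filter 6 hybridization and 1 other gave r between 0.140 and 0.246 with the change in the remaining hybridizations. The 4 pairs without either gave 0.402 to 0.474. These are descriptions across spots, and the 2 sides of each share no run-on hybridization. In splits with a filter 6 hybridization on each side, the genomic DNA value of filter 6 enters both with opposite sign. By itself that lowers r, so part of the weaker likeness is fixed by construction.

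Calls moved with the treatment of filter 6. Without both of its hybridizations 1 spot was called of 5430, although 936 had an unadjusted p below 0.05 and the SD of the change was 0.88. Leaving out another pair, 1 hybridization at each time, gave 0 to 76 calls, so a low count was not particular to filter 6. The counts of 65 and 76 came from leaving out replicate 3 at 0 min with replicate 1 or 3 at 60 min. A fit with filters as random blocks, with a consensus correlation of 0.821, called 775 spots. Of these 301 were higher and 474 lower at 60 min, a share of 38.8% higher against 25.9% in the fit without the block, and all 135 spots were among them. That correlation rests on filters 1 and 6, the only ones used at 2 times. On each of them both ratios of a spot share the genomic DNA value, which by itself raises the correlation.

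**Figure D4:**
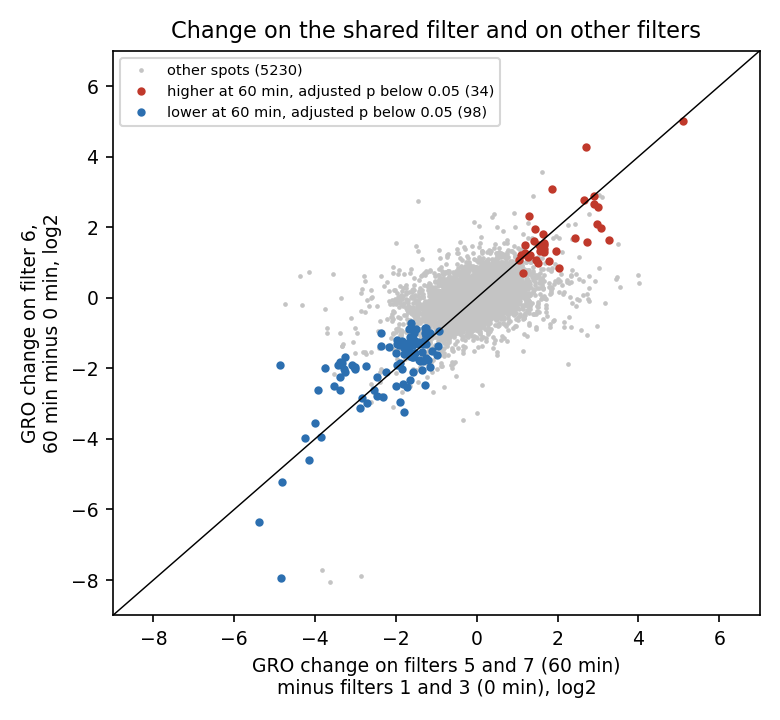
Change of the GRO ratio (log2) on filter 6 against the change on filters 5 and 7 (60 min) minus filters 1 and 3 (0 min), for 5362 spots with 6 values, with the 34 called spots that rose in red and the 98 that fell in blue. All called spots lie in the lower left or upper right, and the cloud of other spots is flatter than the line of equal change.

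Whether the change depended on the run-on level in G1 was examined by sorting spots into 10 equal groups. Sorted by the mean of the same 0 min values that enter the change, the median change was 0.22 in the lowest group and -0.52 in the highest, with a slope of -0.150. A high value at 0 min lowers the change and raises the level at once, so part of this slope is fixed by construction. The level was therefore taken from 1 hybridization at 0 min and the change from the other 2 and the 3 at 60 min.

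With the level from replicate 1 at 0 min, the median change was 0.08 in the lowest group, 0.12 in the second and -0.30 in the highest. With replicate 2 the values were 0.09, 0.12 and -0.26. In both the medians declined over the upper groups. In the highest group of replicate 1, 21.1% of spots lay below -1 and 3.68% above 1, whereas in the fifth group these shares were 5.10% and 4.22%. The slopes were -0.0644 for replicate 1 and -0.0684 for replicate 2. The direction in the upper groups held with both replicates, and the median change of the highest group was smaller in size than with the shared values.

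Replicate 3 at 0 min, on filter 6, gave another picture. The median change was -0.15 in its lowest group and -0.14 in its highest, and the slope was 0.0485. Its level and the change share the genomic DNA value of filter 6 through replicate 2 at 60 min. Without that hybridization the slope was -0.0236, and the medians were -0.01 and -0.31 in the lowest and highest groups. The mean slope over the 3 replicates was -0.0281 ± 0.0664 (SD, n = 3), and that over replicates 1 and 2, which were not on filter 6, was -0.0664 ± 0.0028 (SD, n = 2), an alternative added with the values known. These slopes share the 3 hybridizations at 60 min and, in part, those at 0 min. Neither SD therefore measures a spread between independent replicates, and the means were not judged against them. With filter 6 left out altogether the slopes were -0.0798 for replicate 1 and -0.0763 for replicate 2, and the highest groups had median changes of -0.42 and -0.35.

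Other levels were used as well. By the mean level at 30 min the lowest group had a median change of -0.31 and the highest one of -0.02, with a slope of 0.0725. By held-out 60 min hybridizations the lowest groups had medians of -0.38, -0.29 and -0.36 for replicates 1, 2 and 3, and the highest groups of -0.03, -0.18 and -0.01. By RNAp ChIP at 0 min the lowest and the highest groups both had a median of -0.13, and the slope was -0.0859. The highest group thus had a lower median than the lowest one with replicates 1 and 2 at 0 min as the level, and not with the levels at 30 or 60 min. The distance between the 10th and 90th percentiles of the ratios was 3.11, 3.14 and 2.86 in the 60 min hybridizations, against 3.30, 3.35 and 3.26 at 0 min. The groups did not overlap (exact permutation p = 0.10, the smallest possible, adjusted p = 0.167 over 5 measures), whereas the SD of the ratios was 1.46 ± 0.05 at 60 min and 1.48 ± 0.02 at 0 min (SD, n = 3 each, exact permutation p = 0.60).

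**Figure D5:**
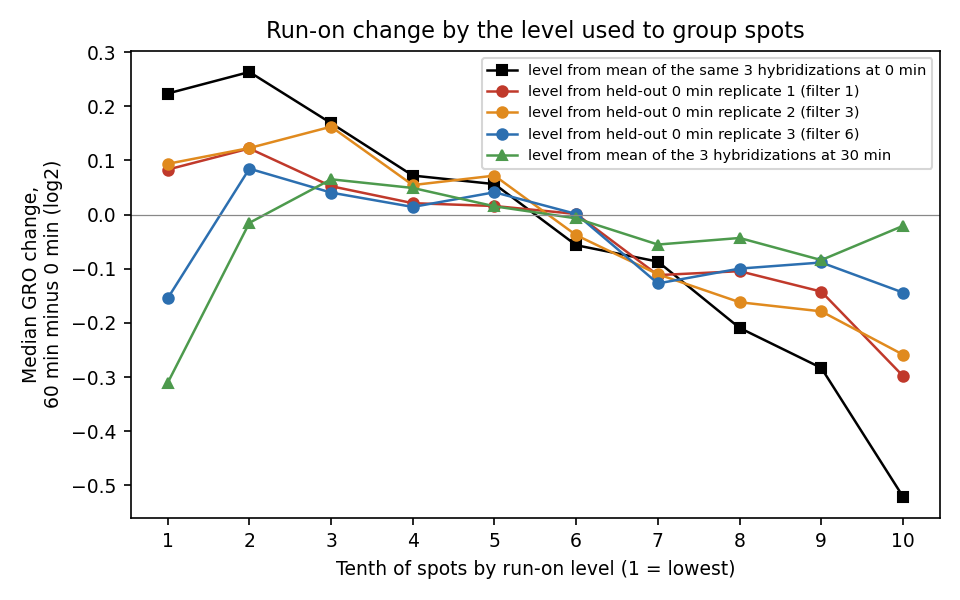
Median GRO change, 60 min minus 0 min (log2), in 10 equal groups of spots from the lowest (1) to the highest (10) run-on level, with the level taken from 5 sources. The line for the shared 0 min values runs from 0.22 to -0.52, those for held-out replicates 1 and 2 end at -0.30 and -0.26, and that for the 30 min level starts at -0.31 and ends at -0.02.

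The spread of the change varied with the genomic DNA signal. From the dimmest to the brightest 25% of spots the SD of the change was 1.03, 0.69, 0.61 and 0.73, and the median residual SD was 0.81, 0.41, 0.34 and 0.32. The number of called spots was 15, 31, 31 and 58. Changes beyond 1 in size were most frequent in the dimmest 25%, where 229 spots lay below -1 and 139 above 1, but few of these were called.

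The 116 spots with the brightest 2% of genomic DNA stood apart. Their median change was -1.07, against -0.02 in the other 5665 spots, with 61 below -1 and none above 1. Their ratios were low, with a median of -3.73 at 60 min and -3.11 at 0 min. Genomic DNA is the denominator of the ratio, and its median here was 4.06 (log2, centred), against -0.05 in the other spots. Low ratios thus follow in part from the choice of these spots. The ratio fell at 20 of them (17.2% called) and rose at none. On filter 6 their median change was -0.54, against -1.32 over the other filters. Without these spots 89 of 5665 were called, 26 higher and 63 lower at 60 min, and the mean slope on the start level was -0.0740. What these positions carry is not given in the sources used here.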

How the data were processed

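BY4741 cells were sampled for GRO and RNAp ChIP at 0, 30 and 60 min after release from alpha factor. Per the study's methods the authors hybridized 33P-labelled material to nylon filters of PCR-amplified ORFs, read them on a phosphorimager and quantified them with ArrayVision. The deposited values are background-subtracted spot intensities of 6144 spots, not scaled between hybridizations, and the authors' threshold over background was not applied. An intensity of 0 was treated as missing. Log2 ratios were centred on the median of each hybridization, as in the study's global median method. One limma fit (3.58.1 in R 4.3.3, lmFit and eBayes) over the 9 GRO hybridizations tested 5781 spots with 2 or more values at 0 and at 60 min, and a separate fit tested RNAp ChIP (log2 ratio of IP to the WCE that shares its replicate number). P-values were adjusted by Benjamini-Hochberg with a threshold of 0.05. Single measures per hybridization were compared by two-sided exact permutation (scipy 1.17.1), and the width between percentiles was added to them after the data were seen. Other values came from Python 3.11.15, numpy 2.4.6 and pandas 2.3.3. The tests were run on simulated data with independent noise in each hybridization. Those data held no shared filter or shared genomic DNA value, so they do not check the calls against such sharing. The comparison, its spots and the analyses were chosen with earlier results of these data known. Named spots were the 2 largest rises and the 2 largest falls among called spots with 3 values at each time, no overlap and genomic DNA outside the dimmest 25%. Gene lists could not be used, since spots are not paired with genes. Alternatives covered the filter, denominator, normalization, spot filters, array blocks and replicates left out.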

Additional observations from a re-analysis of the deposited data

How the results depend on the processing

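The count of 135 changed spots was within 1.5 times of that value under 7 settings besides replicates left out (mean genomic DNA, no genomic DNA, quantile normalization, 3 values, values at all times, 1 added, block medians), where it was 91 to 158. The called spots differed more than the count. Of the 135 spots, 64 were also called with the mean genomic DNA, 63 without genomic DNA, 88 with quantile normalization, 84 with block medians removed, 92 with 1 added, 132 with 3 values and 133 with values at all times. It was 35 with only the 6 hybridizations of 0 and 60 min, 775 with the filter as a random block, 1 without both filter 6 hybridizations, 235 without the 25% of spots with the dimmest genomic DNA and 89 without the brightest 2%. With 1 replicate left out it was 11 to 152. Leaving out other pairs, chosen after the data were seen, gave 4, 10 and 2 (0 min replicate 1 with 60 min replicate 1, 2 or 3), 0, 0 and 0 (0 min replicate 2) and 65 and 76 (0 min replicate 3 with 60 min replicate 1 or 3). For the counts of 0 in limma, 552, 736 and 599 spots had an unadjusted p below 0.05. Fewer hybridizations leave fewer degrees of freedom, but the counts also differed between pairs that left out equally many. What set these counts apart was not tested. The SD of 0.78 across spots stayed between 0.68 and 0.92. Over the 9 single pairs this measure itself had an SD of 0.15, which the filter 6 pair widens (0.70, against 1.03 to 1.18 in the other pairs). The slope of -0.0281 was -0.150 with the level from the same 0 min values and 0.0725 with the level at 30 min, and it lay between -0.0730 and -0.00394 with 1 replicate left out. It was -0.0797 without both filter 6 hybridizations, -0.0740 without the brightest 2% and 0.00371 with 1 added, where its sign turned. None of the 4 named spots changed direction, which their choice for no overlap fixes where only hybridizations or spots were left out.

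A fit with the replicate number as a replicate block called 45 spots, 11 higher and 34 lower at 60 min. Same-numbered hybridizations deviated from their group means with r = 0.096, -0.279 and -0.352 for numbers 1, 2 and 3. Numbers 2 and 3 each hold 1 hybridization of filter 6, which by itself lowers their r, so these values do not show whether the numbers mark pairs.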

Other observations

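The other filter used at 2 times was filter 1, with replicate 1 at 30 min and replicate 1 at 0 min. The difference between these hybridizations had an SD of 0.84 across spots, and the 8 pairs of 30 min and 0 min hybridizations on different filters gave 1.13 to 1.24. By position on the array, the median change ranged from -0.17 to 0.07 over the 16 rows, from -0.16 to 0.07 over the 24 columns and from -0.27 to 0.11 over the 16 positions within a block. Over the 384 blocks it ranged from -1.08 to 0.61. No block held more than 2 of the 135 called spots, and the positions within a block held 1 to 15 of them.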
